A study of Mus musculus with 2 samples.

Results

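Mir191 and Mir425 are a pair of mouse microRNA genes that lie next to each other on chromosome 9, and both were read in heart tissue. They were chosen by their gene identifiers and on their measured level in these libraries, the counts per 1000000 (CPM) of reads on the strand of each gene. They are 2 of the 2202 microRNA genes in the tables, of which 514 had a count on their own strand in both libraries and 265 reached a mean of 10 CPM. Mir191 and Mir425 passed both limits.

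The samples were hearts of adult female mice, 8 to 10 months old, whose strain label is 5xFAD/CAST. 5xFAD is a transgenic line used as a model of Alzheimer disease, whose transgenes are driven by the neuronal Thy1 promoter, while CAST mice are inbred descendants of a wild mouse subspecies. The labels do not say how the strains were combined or whether these animals carried the transgenes. The design held 1 group of 2 libraries, numbered as biological replicates 1 and 2, with no control group, and both carry the same donor identifier, so their spread may be technical. Differences below therefore compare these libraries and not conditions.

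A microRNA is cut from a hairpin in a longer transcript, first in the nucleus by Drosha and then in the cytoplasm by Dicer, and it guides Argonaute to messenger RNAs that match its seed, bases 2 to 8 from its 5′ end. Genes that lie close together on a strand can be cut from the same primary transcript. miR-191 is found in many tissues and in blood cells and is often used as a reference in microRNA measurements. miR-425 is known in human for pairing with the messenger RNA of NPPA, which encodes atrial natriuretic peptide, a hormone that heart muscle secretes.

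The hairpins and mature sequences are shown because the tables count reads per hairpin gene, so the arms of each hairpin were not separated. The sequences are those of RefSeq (build GRCm38.p6), written 5′ to 3′, and both hairpins have the same span and letters as the genes of GENCODE release M21 that the tables count. Mir191 (ENSMUSG00000105497.1) lies on the plus strand at chr9:108568319-108568392, and Mir425 (ENSMUSG00000065579.1) on the plus strand at chr9:108568777-108568861. Capitals in the hairpins mark both mature arms.
mir-191 hairpin: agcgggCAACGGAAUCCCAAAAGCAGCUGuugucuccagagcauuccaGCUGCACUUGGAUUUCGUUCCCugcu
mir-425 hairpin: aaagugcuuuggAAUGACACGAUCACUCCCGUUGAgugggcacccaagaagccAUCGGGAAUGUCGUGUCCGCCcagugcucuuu
The longest run of bases common to both hairpins was 5 bases. The Mir191 hairpin is 74 bases long with 54.1% G and C, and the Mir425 hairpin is 85 bases long, also with 54.1% G and C. The minimum free energy of folding, predicted with RNAfold, was -35.0 kcal/mol for Mir191 and -31.7 kcal/mol for Mir425, with 56 bases paired in each.

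The mature sequences are shown with the seed in capitals, together with a microRNA of another gene that shares a seed with one of them.
mmu-miR-191-5p: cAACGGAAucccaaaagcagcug
mmu-miR-191-3p: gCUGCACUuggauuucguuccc
mmu-miR-425-5p: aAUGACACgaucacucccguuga
mmu-miR-425-3p: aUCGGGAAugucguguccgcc
mmu-miR-489-3p: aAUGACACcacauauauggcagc
The 4 seeds of the pair differ from each other. Among the 1738 mature mouse sequences of the RefSeq table, no other one has the seed of miR-191-5p, miR-191-3p or miR-425-3p. The seed of miR-425-5p occurs in 1 other, miR-489-3p of Mir489 on chromosome 6. Mir489 had 0 counts in each library, which allows up to 0.717 CPM in replicate 1 and 1.04 CPM in replicate 2.

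The order along the plus strand is Mir191 and then Mir425, with 384 bases between them. In GENCODE M21 the only gene on that strand that contains both is 4833445I07Rik, a long noncoding RNA at chr9:108567533-108569174. One annotated transcript of it is a single exon of 1642 bases that holds both hairpins. In its other transcript, which is spliced, Mir191 lies in the intron, chr9:108568181-108568483, and Mir425 starts after the last exon, with 2 bases between. Mir191 is thus exonic or intronic depending on the transcript taken, while Mir425 is exonic in the first and outside the second. Dalrd3, a protein-coding gene with an anticodon-binding domain after which it is named, starts 1024 bases beyond the end of Mir425 in GENCODE M21. The RefSeq gene span of Dalrd3, chr9:108567484-108572773, begins before Mir191 and contains both hairpins. Whether the span of Dalrd3 contains the pair therefore differs between these annotations of the same build. The exons of RefSeq Dalrd3, and other RefSeq genes over the pair, were not examined.

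**Figure D1:**
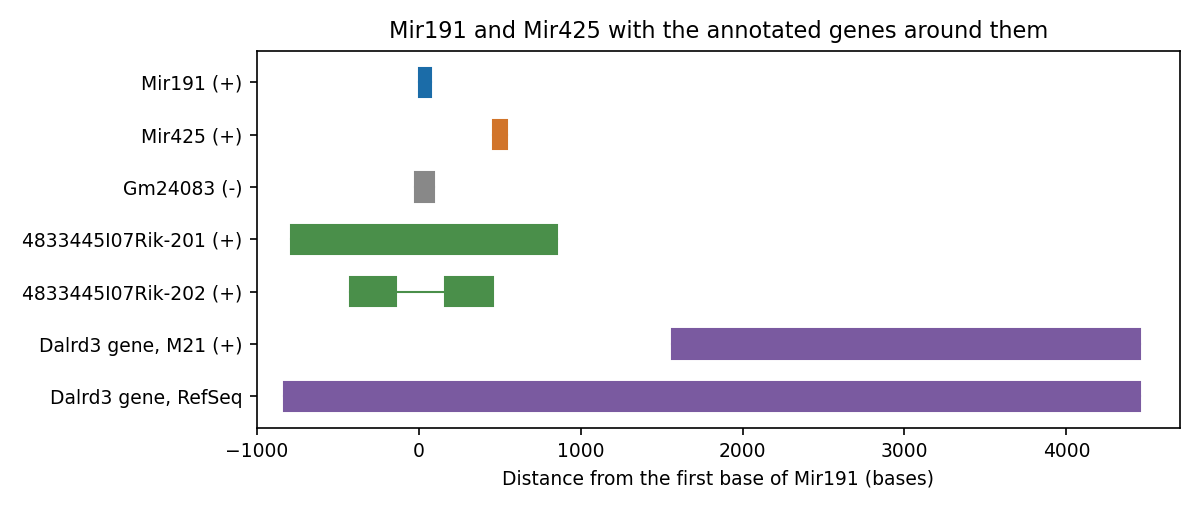
Annotated genes around Mir191 and Mir425, drawn to scale by distance in bases from the first base of Mir191, with strand in brackets where the annotation used gives it. Filled boxes are genes or exons and the thin line is an intron. Gm24083 covers Mir191 on the other strand, and of the Dalrd3 spans only that of RefSeq reaches over both microRNA genes.

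Mir191 was among the most abundant microRNA genes of the heart libraries, and Mir425 stood well below it. Mir191 had 31575 counts in replicate 1 and 23676 counts in replicate 2, which is 7542 CPM (exact Clopper-Pearson 95% interval 7459 to 7625) and 8228 CPM (8124 to 8333). Its mean was 7885 ± 485 CPM (SD, n = 2), or 0.788% ± 0.0485 of all microRNA gene counts. Mir191 ranked 22 in replicate 1, 20 in replicate 2 and 20 by mean level.

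Mir425 had 2145 counts in replicate 1 and 1648 counts in replicate 2, which is 512 CPM (491 to 534) and 573 CPM (545 to 601). Its mean was 543 ± 42.7 CPM (SD, n = 2), or 0.0543% ± 0.00427 of all microRNA gene counts. It ranked 79 in replicate 1, 77 in replicate 2 and 77 by mean level. Both genes were lower in replicate 1, and in neither gene did the counting intervals of the libraries overlap. Such intervals, like the limits set by a count of 0, reflect only the number of reads counted, and reads carrying no molecular identifier may be copies of 1 molecule.

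Together the pair held 0.805% of the microRNA gene counts in replicate 1 and 0.880% in replicate 2, a mean of 0.843% ± 0.0528 (SD, n = 2). MicroRNA genes received 31.6% and 32.2% of all reads, and 42.4% and 43.2% were reads at several loci that went to no gene. Of all reads, Mir191 held 0.239% in replicate 1 and 0.265% in replicate 2, and Mir425 held 0.0162% and 0.0185%. No run of 18 bases from the 4 mature sequences occurs on the same strand in any other microRNA gene, and among 141767 GENCODE M21 transcripts such runs occur otherwise only in 4833445I07Rik on that strand. Places outside annotated transcripts were not searched. The ranks of Mir191 and Mir425 leave out the reads at several loci, so microRNAs encoded by several genes can stand higher than the order here shows.

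In the order of mean level, Mir191 stood below Mir30a, Mir99b and Mir30e and above Mir125a, Mir151 and Mir140. Its values did not overlap those of Mir30a (13572 and 11806 CPM in replicates 1 and 2), Mir99b (9064 and 9390 CPM) or Mir151 (4885 and 7318 CPM). They did overlap those of Mir30e (9554 and 7846 CPM), Mir125a (8990 and 6362 CPM) and Mir140 (1651 and 10419 CPM), so the order of Mir191 against these 3 genes was not settled beyond the spread. Mir425 stood below Mir31, Mir532 and Mir467d and above Mir107, Mirlet7c-1 and Mir497. Its values overlapped those of all 6, whose means ranged from 596 CPM for Mir31 down to 499 CPM for Mir497.

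**Figure D2:**
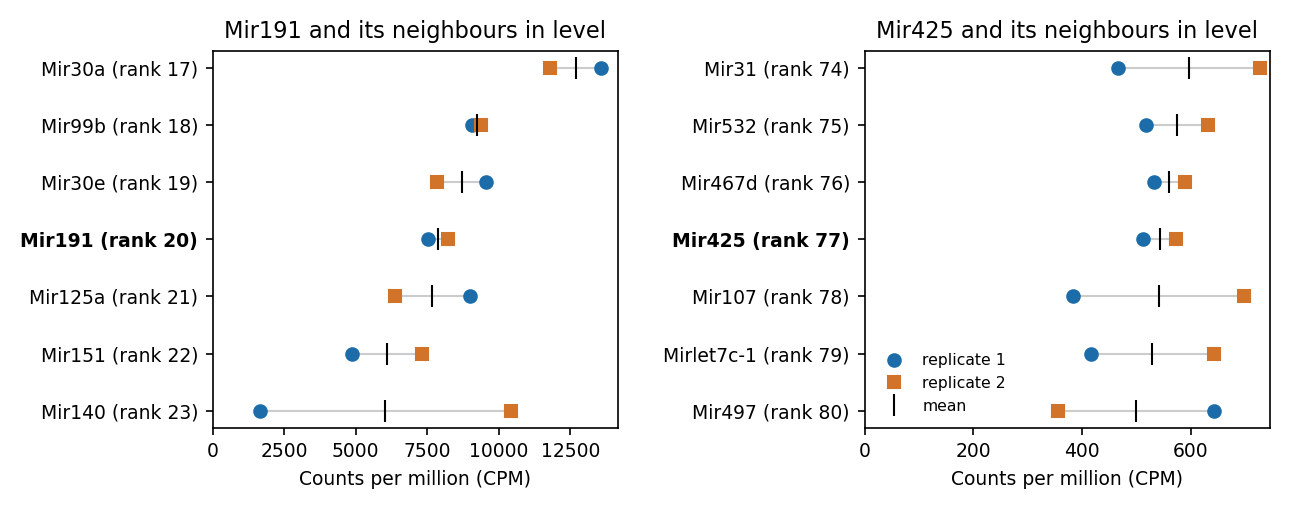
Level in CPM (linear axis from 0) of Mir191 and Mir425, in bold, and of the 3 genes next above and below each in mean level. Circles are replicate 1, squares replicate 2 and vertical ticks the mean of the libraries. The values of Mir191, 7542 and 8228 CPM, lie close together, while those of Mir140 run from 1651 to 10419 CPM.

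All counted reads at Mir191 came from its own strand, and counting without regard to strand removed the gene from the tables. Gm24083 (ENSMUSG00000092915.1), an annotated microRNA gene of 120 bases on the minus strand at chr9:108568295-108568414, covers Mir191 whole and extends past it by 24 bases on the lower side and 22 on the upper. Its sequence contains the reverse complement of the whole Mir191 hairpin. On its own strand Gm24083 had 0 counts in replicate 1 and 0 in replicate 2, and the column for the strand opposite Mir191 likewise held 0 in both. A count of 0 allows an opposite-strand share at Mir191 of up to 0.00950% in replicate 1 and 0.0127% in replicate 2.

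The reads of Mir191 reappeared in full in the opposite-strand column of Gm24083, 31575 in replicate 1 and 23676 in replicate 2. In the column regardless of strand both Mir191 and Gm24083 had 0 counts in each library, because a read in 2 overlapping genes is ambiguous there. The reads of Mir191 were equal in number to 2.47% of the ambiguous reads of replicate 1 and 4.16% of those of replicate 2. Mir425 overlaps no microRNA gene on the other strand. It had 2145 and 1648 counts both on its own strand and regardless of strand, and 0 on the opposite strand.

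Mir191 was 1 of 32 cases in the tables where microRNA genes of opposite strands overlap, and the fourth most abundant of them by its higher gene, after Mir378a, Mir126a and Mir30e. In 19 of the 32 the higher gene had a mean of 10 CPM or more. In 18 of these 19 the higher gene lost every read when strand was ignored. The exception, Mir126a, kept 37 of its 864385 reads over both libraries. In 9 of the 19 the lower gene had 0 counts in both libraries, as Gm24083 did.

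**Figure D3:**
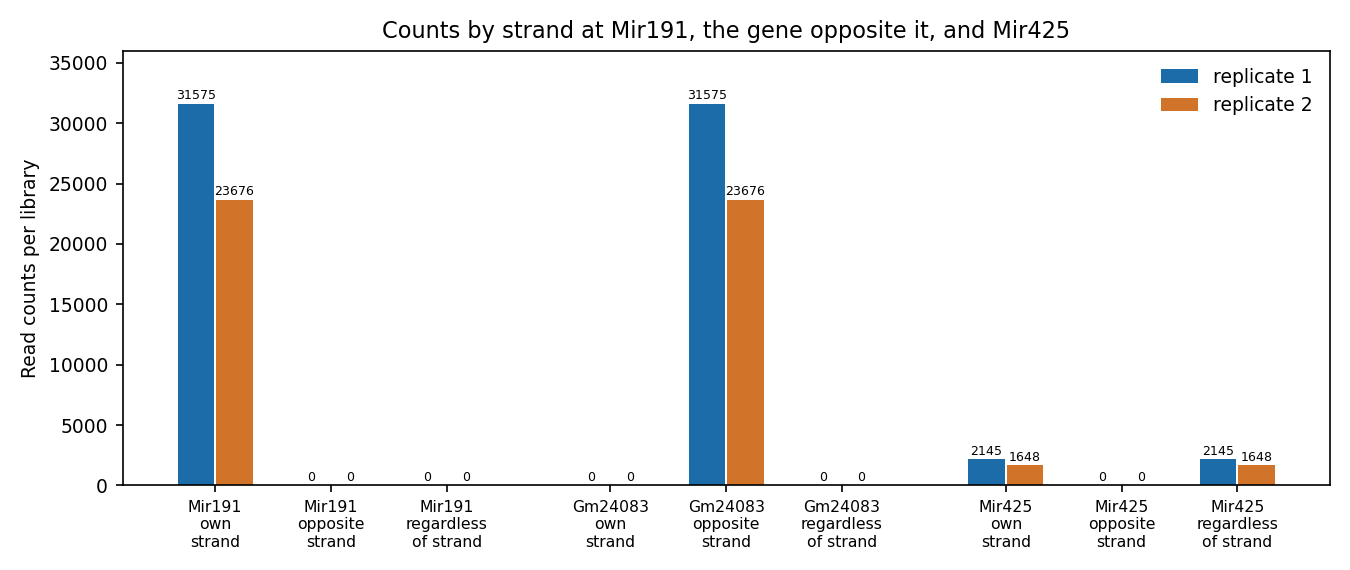
Read counts (linear axis from 0) at Mir191, at Gm24083 on the strand opposite Mir191, and at Mir425, in the 3 count columns of each library, with each count above its bar. The 31575 and 23676 reads of Mir191 are on its own strand, appear as opposite-strand reads of Gm24083, and are absent from both genes in the column regardless of strand, whereas Mir425 keeps its 2145 and 1648 reads.

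Mir191 and Mir425 differed little between the libraries compared with most microRNA genes. Scaled by the trimmed mean of M-values (TMM), the log2 ratio of replicate 1 over replicate 2 was -0.20 for Mir191 (exact binomial 95% interval -0.22 to -0.17) and -0.23 for Mir425 (-0.33 to -0.14), differences of 1.15-fold and 1.17-fold. Neither passed 1.5-fold, while 46.4% of the 265 genes at 10 CPM or more did, 59 of them higher and 64 lower in replicate 1. The median gene differed 1.45-fold in either direction, and the median log2 ratio over the 265 genes was -0.11. Of these genes, 204 had a larger ratio in either direction than Mir191, and 190 a larger one than Mir425. The genes compared were not matched on level. Those near 10 CPM, such as Mir429 with 57 and 24 reads, have ratios with more counting error than Mir191 and Mir425. With 1 library on each side these ratios have no replicate check, and no p-value was computed.

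**Figure D4:**
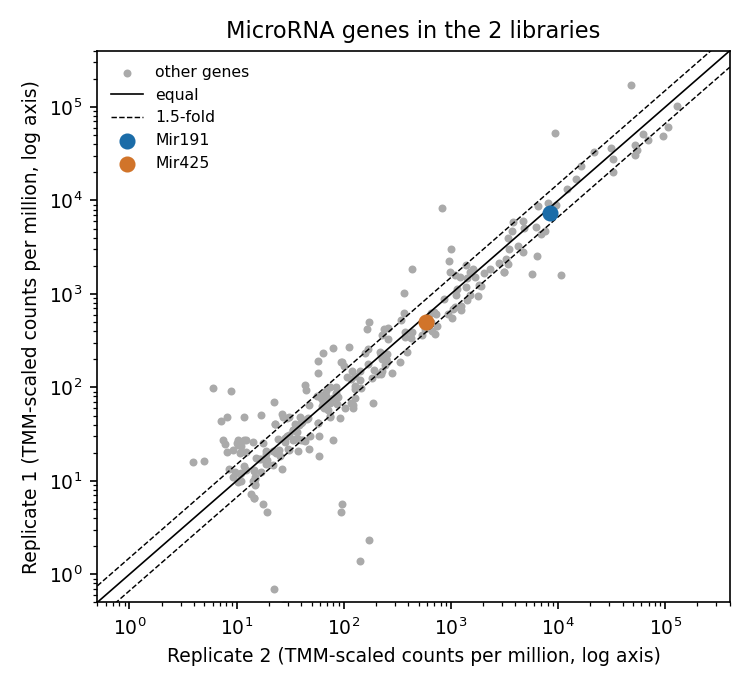
Level of the 265 microRNA genes at a mean of 10 CPM or more in replicate 1 (vertical) and replicate 2 (horizontal), as TMM-scaled CPM on log axes. Each point is a gene, the solid line marks equal levels and the dashed lines 1.5-fold. Mir191 and Mir425 lie between the dashed lines, slightly on the side of replicate 2.

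Markers of the tissue and of other cell types were read in the same libraries. All 3 cardiomyocyte genes (Mir208a, Mir208b and Mir499) were present, with a summed level of 6466 CPM in replicate 1 and 4715 CPM in replicate 2. Mir208b gave little of that sum, with 41.8 and 22.2 CPM, a mean of 32.0 CPM. The liver gene Mir122 had 19.1 and 57.3 CPM, a mean of 38.2 CPM. The 5 epithelial genes summed to 114 and 58.7 CPM, with 4 of them higher and 1 lower in replicate 1. Among them, Mir200b had 49.2 CPM in replicate 1 and 7.99 CPM in replicate 2, while Mir200c had 40.4 and 37.5 CPM. The pancreas genes Mir375 and Mir217 summed to 17.2 and 19.1 CPM, nearly all from Mir375, as Mir217 had 1 read in each library. The 4 leukocyte genes (Mir142, Mir223, Mir150 and Mir155) summed to 5369 CPM in replicate 1 and 7640 CPM in replicate 2. Most of that sum came from Mir155, with 3321 and 4122 CPM, and Mir150, with 1760 and 3029 CPM. Mir142 gave 147 and 274 CPM, and Mir223 gave 141 and 215 CPM. All 4 were lower in replicate 1. The erythroid genes Mir451a and Mir144 summed to 755 and 230 CPM and both were higher in replicate 1, as was endothelial Mir126a with 174314 and 46780 CPM. The smooth muscle genes Mir143 and Mir145a summed to 32911 and 56334 CPM, both lower in replicate 1. No listed marker was at 0 in both libraries. The part of blood cells or of any other cell type in the level of Mir191 and Mir425 was not tested, and in bulk tissue fewer cells of a type and less RNA per cell cannot be told apart.

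The ratio of Mir191 to Mir425 was nearly the same in both libraries. Replicate 1 had 14.7 Mir191 reads per Mir425 read (exact 95% interval 14.1 to 15.4), and replicate 2 had 14.4 (13.7 to 15.1). The mean ratio was 14.5 ± 0.250 (SD, n = 2). Mir425 gave 6.36% of the reads of the pair in replicate 1 (6.10 to 6.63) and 6.51% in replicate 2 (6.21 to 6.82). The log2 ratio of Mir191 to Mir425 in replicate 1 exceeded that in replicate 2 by 0.04, with a normal-approximation 95% counting interval from -0.06 to 0.13 that includes 0. Both genes were read in the same library, so sequencing depth and scaling cancel in this ratio. It is a ratio of reads and not of molecules.

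This ratio was set beside those of other microRNA gene pairs. Genes below a mean of 10 CPM were left out first, and neighbours among the rest on a strand were paired if at most 10 kb apart. Genes below 10 CPM can therefore lie between the members of a pair. There were 68 such pairs, in which a gene could belong to more than one pair, and in each the more abundant gene was put on top. The ratio of Mir191 to Mir425 was the 18th highest, where the median pair had a ratio of 5.42. Next above it was Mir547 over Mir201 with a mean ratio of 16.1, and next below it Mir23b over Mir27b with 14.2. The gap of 384 bases was close to the median gap of 424.5 bases, and 32 pairs had a shorter one.

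Of the 68 pairs, Mir191 and Mir425 had the smallest change of ratio between the libraries, 1.02-fold, where the median pair changed 1.57-fold and 36 pairs changed more than 1.5-fold. The next smallest were Mir154 over Mir485, with a log2 change of -0.04, and Mir17 over Mir18, with -0.05. Their counting intervals, -0.50 to 0.42 and -0.40 to 0.30, were wider than that of Mir191 over Mir425, so the order of these 3 pairs is within counting error. The interval included 0 in 22 of the 68 pairs. By contrast, Mir23b over Mir27b stood at 8.25 in replicate 1 and 20.2 in replicate 2, and Mir143 over Mir145a, the smooth muscle pair, at 18.8 in replicate 1 and 9.08 in replicate 2. With gaps of up to 50 kb, Mir191 and Mir425 had the third smallest change of 77 pairs.

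**Figure D5:**
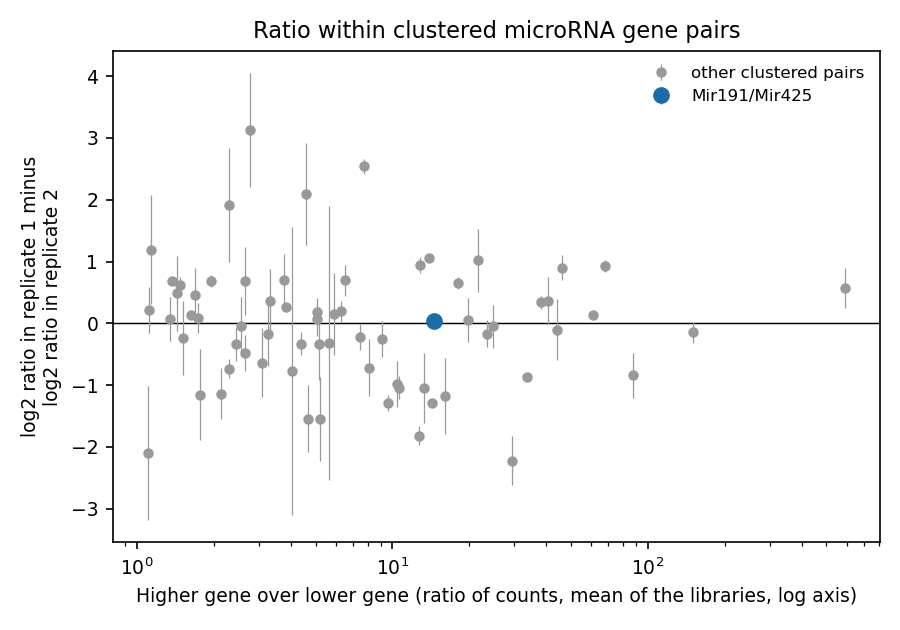
Ratio of the more abundant to the less abundant gene in 68 microRNA gene pairs (horizontal, log axis, mean of the libraries) against the log2 ratio in replicate 1 minus that in replicate 2 (vertical). Paired genes are neighbours on a strand once genes below a mean of 10 CPM are left out. Bars are 95% counting intervals and the horizontal line marks no change. The Mir191 and Mir425 pair, at a ratio of 14.5, lies on that line within its interval, while the pair farthest from it is at 3.13.

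Genes elsewhere in the genome had library ratios as close to those of Mir191 and Mir425 as these had to each other. Likeness was measured as the difference in log2 ratio of replicate 1 over replicate 2, over 2 libraries only, among genes at a mean of 100 CPM or more. Nearest to Mir191 were Mir98 (1230 and 1335 CPM in replicates 1 and 2), Mir322 (3133 and 3397 CPM) and Mir486 (992 and 1097 CPM). Nearest to Mir425 were Mir224 (122 and 137 CPM), Mir26b (28360 and 31445 CPM) and Mir342 (629 and 709 CPM). Mir425 was the 8th of 131 genes in likeness to Mir191, and Mir191 the 8th of 131 in likeness to Mir425.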

How the data were processed

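The deposited tables hold raw read counts per microRNA gene, 1 per library, regardless of strand, on the strand of the gene and on the opposite strand. Per the deposited readme, the build is mm10 and the annotation GENCODE M21; for the aligner and the counter, the sources used here give no name. The first 4 rows (unmapped, several loci, no feature, ambiguous) stayed out of library sizes: 68.4% and 67.8% of 13233055 and 8930289 reads. Gene-strand counts, 4186560 in replicate 1 and 2877511 in replicate 2, gave CPM.

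All 2202 identifiers matched GENCODE M21. TMM factors came from edgeR 4.0.16 (filterByExpr, minimum count 10) in R 4.3.3, alternative size factors from DESeq2 1.42.0. The ratio step was tested on simulated counts with set fold changes and no spread between libraries beyond counting error. Such data cannot show how repeatable the library ratios are. Python 3.11.15, scipy 1.17.1 and ViennaRNA 2.7.2 were used. Intervals are 95%. No test was run, because the design holds 1 group and the genes were selected by level.

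Named genes were the members, overlapping genes, 3 neighbours in level on each side, the 3 closest in library ratio, seed sharers, adjacent or contrasting clustered pairs, and markers; the pairs with the next smallest change and the pair of Mir143 were picked after their values were seen. Members and lists were chosen with earlier results of these data known.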

Additional observations from a re-analysis of the deposited data

How the results depend on the processing

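Of 27 alternative values, 15 stayed within 1 SD or the counting interval of the reported value, or, for counts of genes or pairs, within 1.5-fold of it. The values with 1 library left out had to be among these 15. Either of 2 values always lies within 1 SD of their mean, and the opposite-strand share was 0 in both libraries. Their staying unchanged therefore says nothing of how stable the results are. Regardless of strand, Mir191 had 0 CPM and a ratio to Mir425 of 0, since a gene on the other strand makes its reads ambiguous, and Mir425 came to 726 CPM over a smaller total. Per 1000000 of all reads, Mir191 had 2519 and Mir425 173. With the 3 most abundant genes out of the denominator, Mir191 had 11412 CPM and Mir425 785 CPM. With plain totals the log2 ratio of replicate 1 over replicate 2 was -0.13 for Mir191. The number of genes past 1.5-fold between the libraries was 496 among 709 genes with any count (195 of them at 0 in 1 library and counted as past it), and 53 genes passed 2-fold. Gaps up to 1 kb left 44 clustered pairs and a mean of 100 CPM left 30; in both, Mir191 and Mir425 still had the smallest change of ratio. A ratio for Mir191 regardless of strand does not exist, as both counts are 0. No paired analysis was possible because the design holds 1 group. With 2 libraries, depth limits counting error only and says nothing of the spread between animals.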
